A study of Rattus norvegicus with 12 samples.

Results

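The genes of cholesterol synthesis, uptake, storage and efflux were examined in NRK-52E cells, an established rat kidney line labelled as tubular epithelial cells of WT genotype. A set of 32 genes was looked up by symbol in the deposited count table of 24660 genes. It held 20 enzymes of the mevalonate and sterol branches and 4 genes of SREBP2 control. It also held 3 genes of uptake and intracellular transfer, and 5 genes of the LXR, efflux and storage group. Of the 32 genes, 30 had a row and 28 passed a filter on low counts, which kept 14184 genes for testing. The efflux transporter Abcg1 and the LXR gene Nr1h3 were below that filter. The enzymes Fdps and Lbr had no row under these symbols, so their transcript levels were not analysed here. The study set vesicles made by an efficient 3D method beside vesicles made by a conventional 2D method in a cell model of kidney fibrosis. In all groups cells grew in DMEM with 10% fetal bovine serum, and each group held 3 libraries of total RNA. 3D-EV cells received TGF-beta1, a profibrotic cytokine, for 24 h and then 3D extracellular vesicles for 48 h. 2D-EV cells received TGF-beta1 for 24 h and then 2D vesicles for 48 h, at the same 500000000 particles/ml. TGF-beta1 cells received the cytokine alone for 24 h, and no agent is named for control cells. The labels give the cytokine dose as 10 µg/ml, a unit that is in doubt. The sources used here do not give the cells that made the vesicles, the harvest times of TGF-beta1 and control cells, or whether the cytokine stayed in the medium. Added time in culture and vesicle treatment therefore cannot be told apart. Whether control and TGF-beta1 cells had the same time in culture is not known, so any such difference cannot be told apart from the cytokine.

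Cells build cholesterol from acetyl-CoA through the mevalonate branch, which ends in isoprenoids, and the sterol branch, which runs from squalene through lanosterol to cholesterol. The membrane-bound transcription factor SREBP2, encoded by Srebf2, is carried by the escort protein SCAP to the Golgi for cleavage when sterols in the endoplasmic reticulum are low, and it then raises the enzyme genes and lipoprotein receptor genes. INSIG proteins hold the escort back when sterols are high. The liver X receptors (LXR) sense oxysterols and raise the export pumps Abca1 and Abcg1 and the ubiquitin ligase Mylip, which degrades lipoprotein receptors. Tubular cells of the kidney reabsorb filtered lipids and proteins, and both lipid storage and sterol supply have been studied in kidney injury.

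Libraries held 32888125 to 39754319 counts, and levels are given as CPM, each gene's share of its library's counts on a fixed scale, adjusted by TMM factors. A single read was worth 0.0255 to 0.0305 CPM. The limit set by a count of 0, taken as 3 counts and covering counting error alone, lay between 0.0764 and 0.0916 CPM. CPM is not divided by gene length, so levels are compared between libraries and not between genes. Libraries are not stated to be separate cultures, so p-values measure the spread between libraries, which may be technical. In these bulk samples fewer cells of a type and less RNA per cell cannot be told apart. Of the tubular markers, Pax2, Epcam and Umod had 0 counts in every library and Slc34a1 had at most 3, while Krt8 had 34718 to 46419 counts, Ggt1 5455 to 12568 and Aqp1 447 to 841. The summed level of the 14 tubular markers was 1505 to 1569 CPM in TGF-beta1 cells and 1200 to 1230 CPM in control cells. It was carried by Krt8 and Ggt1, which rose (log2 fold changes 0.26 and 0.88), while Aqp1 and Anpep fell (-0.40 and -0.39) and the other 4 of 8 tested genes missed the threshold. The 7 fibroblast markers summed to 696 to 715 CPM in TGF-beta1 cells and 741 to 788 CPM in control cells. Mfap5 and Col14a1 carried that sum, and Dcn, Lum and Pdgfra had at most 2, 6 and 10 counts in any library. Col14a1 fell (log2 fold change -0.62), while Mfap5, Pdgfrb and Thy1 missed the threshold with log2 fold changes of 0.0024, 0.18 and 0.44. Of the 7 immune markers, 5 including Ptprc were at 0 everywhere, and the sum of the list, carried by Cd14, was 246 to 254 CPM in TGF-beta1 cells and 180.4 to 196 CPM in control cells. The 6 endothelial markers summed to 15.4 to 16.1 CPM in TGF-beta1 cells and 12.4 to 13.6 CPM in control cells, a sum carried by Egfl7 (log2 fold change 0.41), while Vwf and Tek missed the threshold with log2 fold changes of -0.74 and -0.14.

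TGF-beta1 cells had higher transcript levels of 17 of the 18 tested synthesis enzymes than control cells, and of Insig1, Vldlr, Stard4 and Soat1, genes of sterol sensing, uptake, transfer and storage. Of the 28 tested cholesterol genes, 21 rose, none fell and the other 7 missed the threshold (edgeR quasi-likelihood test, Benjamini-Hochberg adjusted p under 0.05), where 11.8% of all tested genes rose and 10.2% fell. In 22 of them all 3 TGF-beta1 libraries stood above all 3 control libraries, as in 19.1% of all tested genes. The cholesterol genes were chosen with earlier results of these data known. Around the group means the enzymes varied together, with a median correlation of 0.51 over 153 enzyme pairs. The counted genes are thus not separate observations. The changes were small: the median log2 fold change of the 28 genes was 0.25, against -0.005 over all tested genes, and the largest rise was 1.47-fold. In the same comparison 5 of 8 proliferation genes fell and 0 rose, and their summed level was 1013 to 1053 CPM in TGF-beta1 cells and 1159 to 1190 CPM in control cells. Their part in the cholesterol gene changes, and that of the marker lists above, was not tested.

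**Figure D1:**
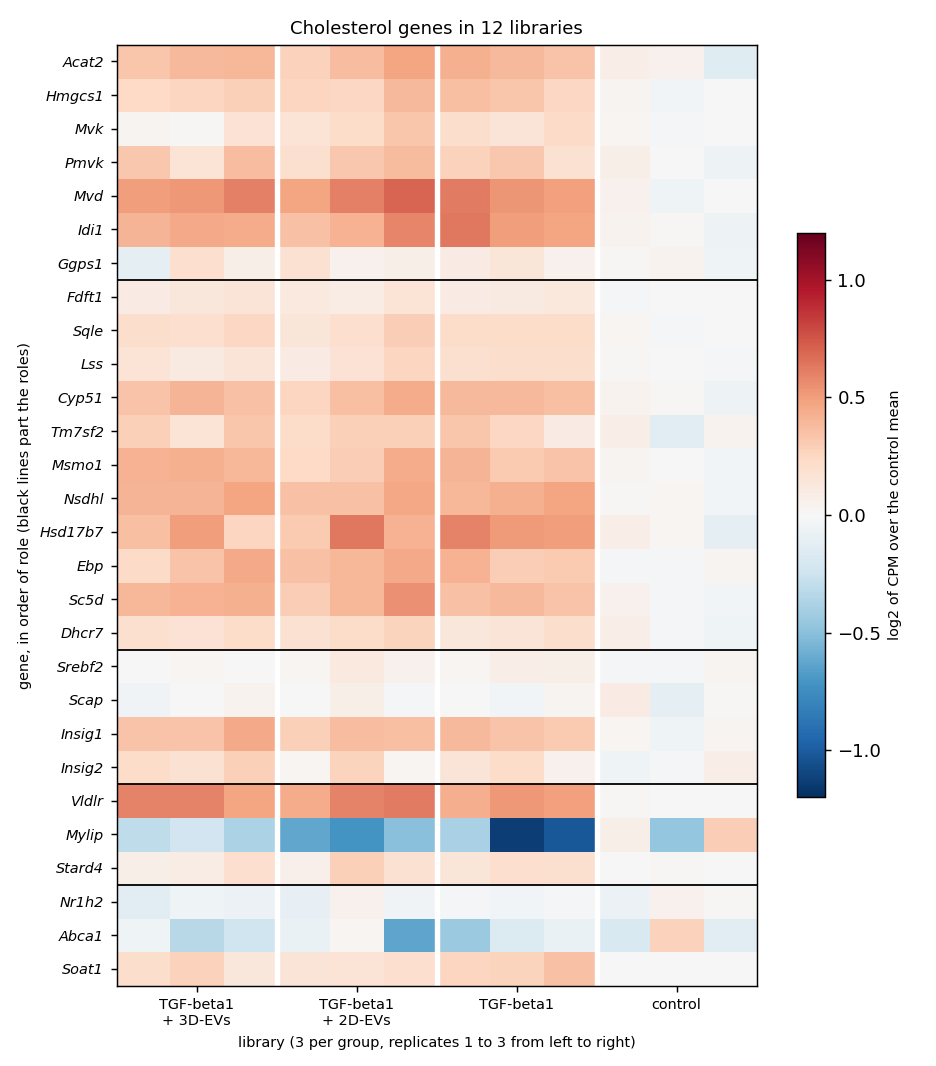
Each row is a tested cholesterol gene in order of role, each column a library, and colour gives the log2 of its CPM over the mean of the 3 control libraries. Most enzyme rows are red in the 9 libraries that received TGF-beta1, up to the Mvd and Idi1 rows, while Srebf2, Scap, Nr1h2 and Abca1 stay near or below the control level.

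In the mevalonate branch 6 of 7 tested enzymes rose in TGF-beta1 cells. Mvd, the decarboxylase that makes isopentenyl diphosphate, had 194, 197 and 209 CPM in 3D-EV cells, 191, 209 and 223 CPM in 2D-EV cells and 212, 199 and 194 CPM in TGF-beta1 cells, against 142, 132 and 138 CPM in control cells. Every library that received TGF-beta1 stood above every control library for Mvd. Its mean was 201 ± 9.37 CPM in TGF-beta1 cells and 137 ± 5.10 CPM in control cells (SD, n = 3 each), a log2 fold change of 0.55 (SE 0.05, edgeR adjusted p 3.42e-06). Idi1, the isomerase that acts on the product of Mvd, had 246, 254 and 252 CPM in 3D-EV cells, 236, 248 and 279 CPM in 2D-EV cells and 287, 263 and 257 CPM in TGF-beta1 cells, against 191, 188 and 177 CPM in control cells. The 4 groups of Idi1 thus formed a low control set and a higher set of 9 libraries, in which the 3D-EV libraries lay just under the TGF-beta1 libraries. It rose 1.45-fold in TGF-beta1 cells (log2 fold change 0.54, SE 0.05, edgeR adjusted p 5.85e-06). Hmgcs1, the synthase that condenses acetyl-CoA with acetoacetyl-CoA, had 568, 577 and 588 CPM in 3D-EV cells, 574, 570.4 and 629 CPM in 2D-EV cells and 618, 607 and 572 CPM in TGF-beta1 cells, against 493, 471 and 479 CPM in control cells. Here too no control library reached any library of the other groups. The rise of Hmgcs1 in TGF-beta1 cells was 0.32 on the log2 scale (SE 0.04, edgeR adjusted p 4.23e-05). Acat2, the thiolase of the first step, had 499.8, 519 and 525 CPM in 3D-EV cells, 482, 514 and 550.2 CPM in 2D-EV cells and 535, 519.7 and 502 CPM in TGF-beta1 cells, against 421, 412 and 359.7 CPM in control cells. Control libraries of Acat2 were spread over 33.1 CPM (SD) around 397 and still did not overlap the TGF-beta1 libraries (log2 fold change 0.38, SE 0.06, edgeR adjusted p 0.000136). The kinases Pmvk (log2 fold change 0.26) and Mvk (0.20) rose with edgeR adjusted p of 0.00702 and 0.0100. Ggps1, which diverts isoprenoids to protein prenylation and away from sterols, averaged 20.6 ± 0.673 CPM in TGF-beta1 cells and 19.2 ± 0.642 CPM in control cells (SD, n = 3 each) and did not pass the test (log2 fold change 0.10, edgeR adjusted p 0.412).

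In the sterol branch all 11 tested enzymes rose in TGF-beta1 cells, by 1.08-fold for Fdft1, the squalene synthase, to 1.45-fold for Hsd17b7, a ketosteroid reductase of C-4 demethylation. Nsdhl, the dehydrogenase of the same demethylation, had 156, 157 and 163 CPM in 3D-EV cells, 151, 151 and 163 CPM in 2D-EV cells and 156, 159 and 164 CPM in TGF-beta1 cells, against 119, 119 and 115 CPM in control cells. The libraries of Nsdhl lay close together within each group, and its log2 fold change of 0.43 (SE 0.04) had the smallest edgeR adjusted p of the 28 genes in this comparison, 1.12e-06. Cyp51, the lanosterol demethylase, had 667, 696 and 671 CPM in 3D-EV cells, 626, 674 and 715 CPM in 2D-EV cells and 689.8, 687 and 674 CPM in TGF-beta1 cells, against 541, 531 and 505 CPM in control cells. Cyp51 was spread most within 2D-EV cells, but its lowest value there was still above all control libraries. It rose by 0.38 on the log2 scale in TGF-beta1 cells (edgeR adjusted p 1.19e-05). Msmo1, the methyl sterol oxidase that opens C-4 demethylation, had 472, 473 and 464 CPM in 3D-EV cells, 417, 432 and 480.2 CPM in 2D-EV cells and 469, 438 and 448 CPM in TGF-beta1 cells, against 361, 352 and 346 CPM in control cells. Sc5d, a late-step desaturase, had 229, 231 and 233 CPM in 3D-EV cells, 213, 228 and 253 CPM in 2D-EV cells and 221, 227 and 220.1 CPM in TGF-beta1 cells, against 179.7, 171 and 169.6 CPM in control cells. For both genes the 9 libraries with TGF-beta1 lay above the 3 controls, and both rose by 0.36 on the log2 scale in TGF-beta1 cells (edgeR adjusted p 3.91e-05 for Msmo1 and 7.22e-05 for Sc5d). The rises of the squalene epoxidase Sqle (454 ± 0.970 CPM in TGF-beta1 cells, 389.9 ± 6.64 CPM in control cells) and of Dhcr7, the reductase of a last step (121 ± 3.41 CPM in TGF-beta1 cells, 108 ± 5.23 CPM in control cells; SD, n = 3 each), were smaller, 0.22 and 0.17 on the log2 scale. The sterol reductase Tm7sf2 (log2 fold change 0.23, edgeR adjusted p 0.0301) was not secure: its adjusted p was 0.126 without control library 2, 0.132 without TGF-beta1 library 1, 0.0818 without TGF-beta1 library 2 and 0.0529 when only these 6 libraries were fitted.

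Summed over the 18 tested enzymes, transcript levels were 4142, 4211 and 4257 CPM in 3D-EV cells, 3986, 4163 and 4481 CPM in 2D-EV cells and 4322, 4226 and 4159 CPM in TGF-beta1 cells, against 3444, 3340.3 and 3262 CPM in control cells. The sum, which is weighted to the most abundant enzymes, was 1.26 times as high in TGF-beta1 cells as in control cells, 1.31 times for the mevalonate branch and 1.24 times for the sterol branch. Some libraries ranked alike over most enzymes and others did not. Library 3 of the 2D-EV cells was the highest of its group in 16 of 18 enzymes and library 1 the lowest in 15, and control library 1 was the highest of its group in 14. Control library 3 was the lowest of its group in 11. In 3D-EV cells library 3 was the highest in 12 and library 1 the lowest in 10. Library 2 of the 3D-EV cells was the highest in 5 and the lowest in 6. In TGF-beta1 cells library 1 was the highest in 10 and the lowest in 4, and library 3 was the lowest in 10.

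**Figure D2:**
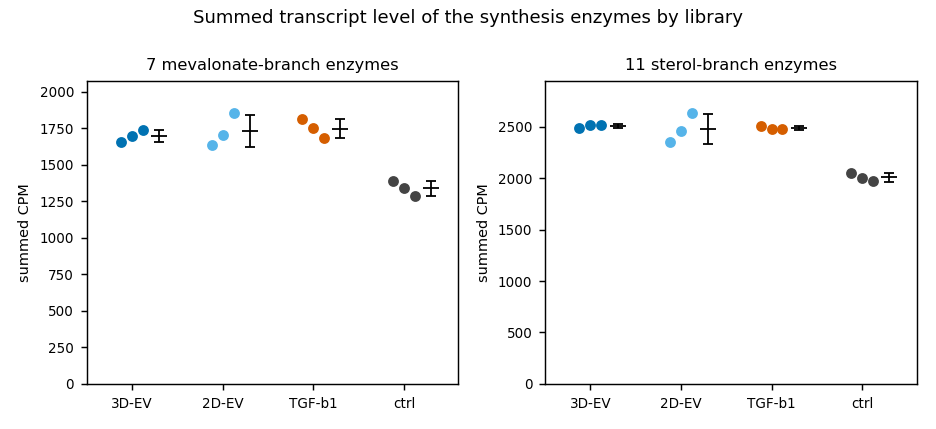
Points are the summed CPM of each library for the 7 mevalonate enzymes and for the 11 sterol enzymes, on axes from 0, and the bars beside them give the mean and SD of 3 libraries. Control libraries lie below all others in both panels, and the 2D-EV libraries are spread most, from 3986 to 4481 CPM for both branches together.

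**Figure D3:**
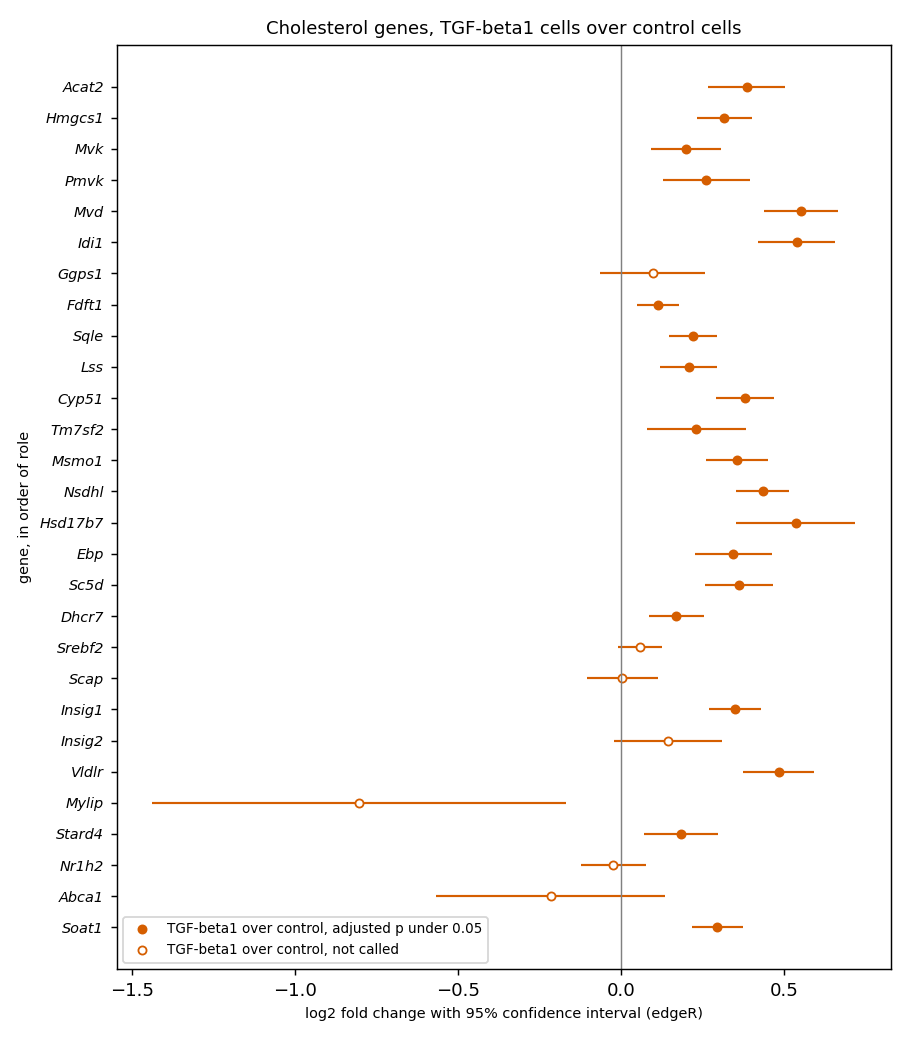
Points are log2 fold changes of TGF-beta1 over control cells with 95% confidence intervals from edgeR for the 28 tested genes in order of role, filled where the adjusted p was under 0.05. The 21 filled points lie right of 0, from 0.11 for Fdft1 to 0.55 for Mvd, and Mylip alone lies far to the left with a wide interval.

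The sequence before the start site was read for the 27 of the 32 genes found in the RefSeq promoter table of build GRCr8, Fdps, Lbr and Nr1h3 among them. The counts were made on another build, and no coordinate was carried between them. Pmvk, Fdft1, Sqle, Stard4 and Abcg1 are named only. The window was the 250 bases upstream of the start, searched on both strands. The core of the sterol regulatory element, TCACNCCAC, was in 0 of the 27 windows and in 0.976% of the windows of all 27457 promoters. CCAAT, the letters bound by NF-Y, a factor known to work beside SREBP at sterol genes, was in 19 of 27 windows (70.4%) and in 34.3% of all promoters. It was in 13 of the 17 windows of genes that rose in TGF-beta1 cells and in 4 of the 7 windows of genes that did not pass the test. The GC box GGGCGG was in 21 of 27 windows (77.8%) and in 32.4% of all promoters, or 50.1% of the 13686 promoters of genes named in the count table. A match is a description of these letters only, and no match says only that these letters are not in this window. The 4 windows that follow are those of the genes that rose with the smallest p among those holding CCAAT, chosen after their values were seen, and Abca1 is set beside them as an LXR target whose level did not pass the test. Each is upstream sequence from RefSeq on GRCr8, 5′ to 3′ on the strand of the gene, with capitals for CCAAT or its reverse complement ATTGG. They lie at chrX:155817110-155817359 (+) for Nsdhl, chr19:67414975-67415224 (-) for Mvd, chr17:66547525-66547774 (-) for Idi1, chr4:8057770-8058019 (-) for Insig1 and chr5:72596474-72596723 (-) for Abca1.
Nsdhl: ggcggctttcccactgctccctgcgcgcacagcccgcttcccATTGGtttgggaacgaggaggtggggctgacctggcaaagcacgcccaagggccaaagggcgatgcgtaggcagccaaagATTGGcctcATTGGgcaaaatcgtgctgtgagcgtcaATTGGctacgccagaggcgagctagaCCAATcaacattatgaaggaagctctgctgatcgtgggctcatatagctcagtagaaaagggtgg
Mvd: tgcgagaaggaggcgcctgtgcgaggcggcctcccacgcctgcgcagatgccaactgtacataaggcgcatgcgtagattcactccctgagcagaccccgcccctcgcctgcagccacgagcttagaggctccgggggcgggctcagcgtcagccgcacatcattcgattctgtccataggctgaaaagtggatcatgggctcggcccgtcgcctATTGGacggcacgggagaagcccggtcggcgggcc
Idi1: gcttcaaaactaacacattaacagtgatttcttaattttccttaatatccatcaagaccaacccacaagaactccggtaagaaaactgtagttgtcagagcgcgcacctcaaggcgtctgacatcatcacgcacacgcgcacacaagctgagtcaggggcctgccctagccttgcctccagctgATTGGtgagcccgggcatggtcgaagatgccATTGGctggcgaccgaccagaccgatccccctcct
Insig1: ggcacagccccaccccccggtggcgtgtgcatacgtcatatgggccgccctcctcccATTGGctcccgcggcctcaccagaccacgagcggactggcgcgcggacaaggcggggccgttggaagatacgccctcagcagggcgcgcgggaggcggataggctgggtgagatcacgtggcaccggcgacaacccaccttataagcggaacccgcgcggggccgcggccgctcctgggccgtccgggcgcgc
Abca1: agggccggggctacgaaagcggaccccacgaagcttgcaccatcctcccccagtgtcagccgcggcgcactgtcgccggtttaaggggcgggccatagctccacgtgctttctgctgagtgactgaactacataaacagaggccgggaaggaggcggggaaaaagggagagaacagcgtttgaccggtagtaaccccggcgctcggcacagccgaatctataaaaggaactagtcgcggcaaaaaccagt
Nsdhl held 5 such pentamers, Idi1 held 2, at 66 to 62 and 35 to 31 bases before the start, and Mvd held 1, also at 35 to 31 bases before it. In Insig1 the pentamer lay farther out, at 193 to 189 bases, and Abca1 held none.

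Among the 4 genes of SREBP2 control, Insig1 rose in TGF-beta1 cells and Srebf2, Scap and Insig2 did not pass the test. Insig1, the sterol-dependent retention protein and itself a known SREBP target, had 663, 663 and 715 CPM in 3D-EV cells, 636, 673 and 671 CPM in 2D-EV cells and 682, 663 and 650.5 CPM in TGF-beta1 cells, against 531, 502 and 533 CPM in control cells. All 9 libraries with TGF-beta1 stood above the controls, and the log2 fold change in TGF-beta1 cells was 0.35 (SE 0.04, edgeR adjusted p 9.84e-06). Its relative Insig2, present at far lower counts, had 19.1, 18.6 and 20.1 CPM in 3D-EV cells, 16.7, 19.8 and 16.7 CPM in 2D-EV cells and 18.3, 19.1 and 17.1 CPM in TGF-beta1 cells, against 15.8, 16.1 and 17.3 CPM in control cells. TGF-beta1 and control libraries of Insig2 overlapped (log2 fold change 0.14, edgeR adjusted p 0.217). Srebf2, the gene of SREBP2, had 251, 256 and 252 CPM in 3D-EV cells, 256, 273 and 262 CPM in 2D-EV cells and 256, 267 and 265 CPM in TGF-beta1 cells, against 250.5, 249 and 258 CPM in control cells. Its TGF-beta1 and control libraries overlapped, and the 95% interval of the log2 fold change ran from -0.01 to 0.13 (edgeR adjusted p 0.228). Scap, the escort, had 57.9, 60.0 and 61.4 CPM in 3D-EV cells, 60.1, 62.9 and 59.2 CPM in 2D-EV cells and 60.0, 58.5 and 61.4 CPM in TGF-beta1 cells, against 63.9, 55.2 and 60.3 CPM in control cells. All groups of Scap overlapped, with an interval of -0.10 to 0.11 for TGF-beta1 over control cells. RNA counts give neither the cleavage of SREBP2 nor the amount of any of these proteins.

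In the uptake group 2 of 3 genes rose in TGF-beta1 cells. Vldlr, a receptor for triglyceride-rich lipoproteins and other ligands, had 68.7, 68.4 and 62.8 CPM in 3D-EV cells, 61.9, 68.7 and 69.8 CPM in 2D-EV cells and 61.6, 65.2 and 63.7 CPM in TGF-beta1 cells, against 45.8, 45.2 and 45.2 CPM in control cells. The control libraries of Vldlr were almost level, and the rise in TGF-beta1 cells was 1.40-fold (log2 fold change 0.48, SE 0.05, edgeR adjusted p 8.12e-06). Stard4, a soluble sterol carrier, had 58.0, 58.8 and 63.7 CPM in 3D-EV cells, 57.7, 67.4 and 62.7 CPM in 2D-EV cells and 61.4, 63.7 and 63.2 CPM in TGF-beta1 cells, against 55.1, 55.8 and 55.1 CPM in control cells. Its groups did not overlap between TGF-beta1 and control cells, but the rise was small (log2 fold change 0.18, edgeR adjusted p 0.0225). The adjusted p of Stard4 was 0.0642 without control library 1, 0.0606 without control library 3, 0.0800 without TGF-beta1 library 2 and 0.0663 without TGF-beta1 library 3. The ligase gene Mylip was weakly expressed, with counts of 37, 35 and 30 in 3D-EV cells, of 26, 25 and 27 in 2D-EV cells and of 31, 19 and 21 in TGF-beta1 cells, against 43, 29 and 51 in control cells. That is 0.891, 0.534 and 0.577 CPM in TGF-beta1 cells and 1.22, 0.846 and 1.43 CPM in control cells, where TGF-beta1 library 1 reached above control library 2. Its log2 fold change of -0.80 (95% interval -1.44 to -0.17) did not pass the test (edgeR adjusted p 0.0675), and the adjusted p was 0.0412 without TGF-beta1 library 1 and 0.0443 without control library 2.

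In the LXR, efflux and storage group 1 of 3 tested genes rose in TGF-beta1 cells. Soat1, which esterifies cholesterol for storage in droplets, had 321, 334 and 304 CPM in 3D-EV cells, 307, 310.5 and 317 CPM in 2D-EV cells and 331, 334 and 353 CPM in TGF-beta1 cells, against 277, 277 and 275 CPM in control cells. It was highest in TGF-beta1 cells and nearly level among control libraries (log2 fold change 0.30, SE 0.04, edgeR adjusted p 3.72e-05). Abca1, the pump that loads cholesterol onto apolipoproteins, had 9.40, 7.72 and 8.24 CPM in 3D-EV cells, 9.19, 9.91 and 6.29 CPM in 2D-EV cells and 7.16, 8.71 and 9.23 CPM in TGF-beta1 cells, against 8.58, 11.8 and 8.85 CPM in control cells. All groups of Abca1 overlapped, and the interval of the log2 fold change in TGF-beta1 cells was wide, -0.57 to 0.14. Nr1h2, the broadly expressed LXR gene, had 60.1, 59.9 and 60.2 CPM in TGF-beta1 cells, against 58.3, 63.5 and 61.6 CPM in control cells, and did not pass the test (log2 fold change -0.02, edgeR adjusted p 0.765). Nr1h3, the LXR gene known from liver, fat and macrophages, was too weak to test, with 0, 4 and 4 counts in 3D-EV libraries, 0 in every 2D-EV library, 9, 0 and 5 in TGF-beta1 libraries and 0, 7 and 0 in control libraries. Abcg1, the pump that exports cholesterol to lipoprotein particles, had 4, 0 and 3 counts in 3D-EV libraries, 10, 9 and 2 in 2D-EV libraries and 0 in every TGF-beta1 library, against 6, 6 and 8 in control libraries. The sums were 7 in 3D-EV cells (95% Poisson interval 2.81 to 14.4), 21 in 2D-EV cells (13.0 to 32.1), 0 in TGF-beta1 cells (0 to 3.69) and 20 in control cells (12.2 to 30.9). These intervals cover counting error alone and are too narrow where libraries of the same group differ by more than that. Without the low-count filter the difference between TGF-beta1 and control cells had an edgeR adjusted p of 0.0309, while the adjusted p against TGF-beta1 cells was 0.401 in 2D-EV cells and 0.807 in 3D-EV cells. The values 1, 2 and 3 filled 1514, 5687 and 4024 cells of the whole table, so such small counts do not follow plain counting of reads.

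**Figure D4:**
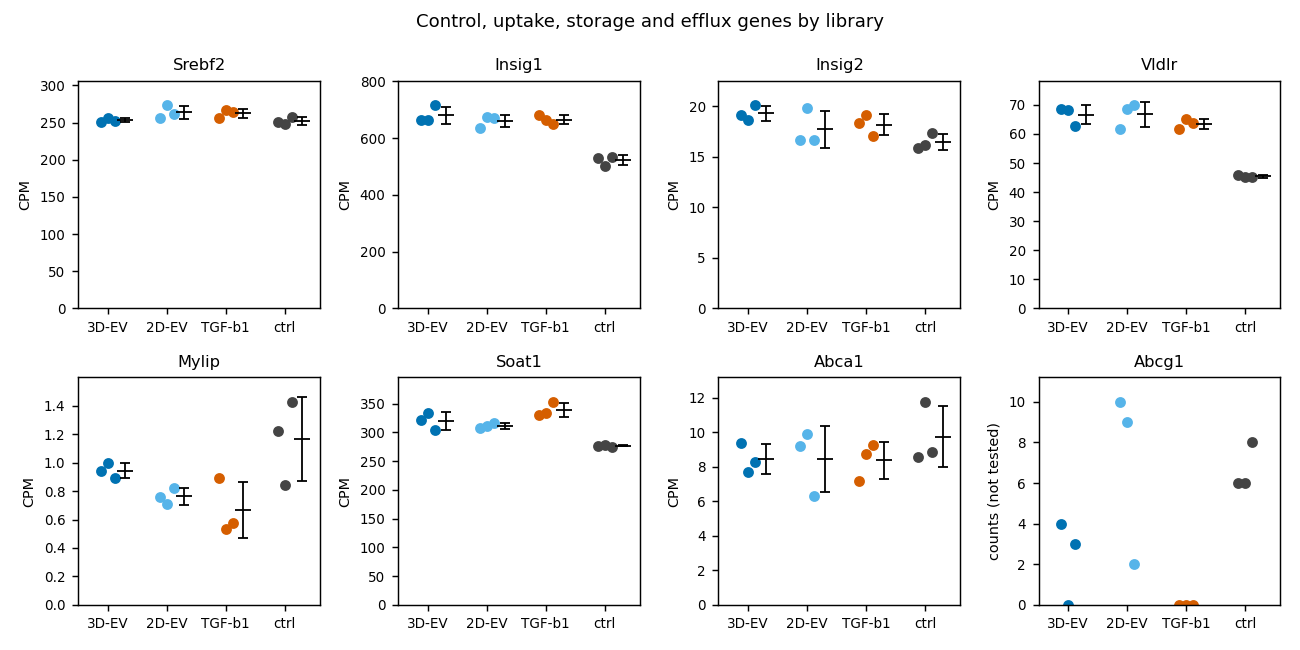
Points give each library of 8 genes of control, uptake, storage and efflux in CPM, or in counts for Abcg1, on axes from 0, with the mean and SD of 3 libraries beside them except for Abcg1. Insig1, Vldlr and Soat1 are higher in all 9 libraries with TGF-beta1, TGF-beta1 and control libraries of Srebf2 and Abca1 overlap, and Abcg1 is at 0 in all 3 TGF-beta1 libraries and in 1 of the 3D-EV libraries.

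Other genes of the same pathways were counted in TGF-beta1 cells in the same way, beside the 11.8% of all tested genes that rose and the 10.2% that fell. Of 9 further genes of SREBP transport and sterol-regulated degradation, 1 fell and the other 8 missed the threshold, a share near that of all genes. The fall was that of Erlin2, a membrane protein of sterol-regulated degradation, with 53.5 ± 2.74 CPM in TGF-beta1 cells and 60.3 ± 1.72 CPM in control cells (log2 fold change -0.17, edgeR adjusted p 0.0118; SD, n = 3 each, here and for the means that follow). Of 11 tested genes of a list on the use of isoprenoids outside sterols, which also holds Uggt1, a glucosyltransferase of protein folding that uses none, 1 fell and 10 missed the threshold, again near the share of all genes. That gene was Dhdds, a subunit of the enzyme that makes dolichol, with 80.3 ± 1.98 CPM in TGF-beta1 cells and 123 ± 1.91 CPM in control cells (log2 fold change -0.62, edgeR adjusted p 1.01e-07). Of 21 genes of lipoprotein receptors, lysosomal export and sterol transfer, 8 rose and 2 fell, and 11 missed the threshold. Lrp8, a receptor of the same family as Vldlr, averaged 48.5 ± 0.988 CPM in TGF-beta1 cells and 29.8 ± 0.776 CPM in control cells (log2 fold change 0.70, edgeR adjusted p 3.32e-06). Npc2, which moves cholesterol out of lysosomes, averaged 829 ± 20.9 CPM in TGF-beta1 cells and 675 ± 18.2 CPM in control cells (log2 fold change 0.30, edgeR adjusted p 4.13e-05). The caveolar protein gene Cav1 fell, with 790.4, 792 and 823 CPM in TGF-beta1 cells, against 1118, 1119.9 and 1162 CPM in control cells (log2 fold change -0.50, edgeR adjusted p 3.60e-08). Of 11 tested genes among 17 of LXR and oxysterol biology, 2 rose and 2 fell, and 7 missed the threshold. The transporter gene Abca7 (log2 fold change 0.49) and the phospholipid-remodelling gene Lpcat3 (0.36) rose, and the nuclear receptor coactivator gene Ncoa1 fell by 0.23 on the log2 scale, with edgeR adjusted p of 1.32e-05, 1.91e-05 and 0.0104.

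The study's question of what the vesicles do to cells after TGF-beta1 was addressed by setting 3D-EV and 2D-EV cells beside TGF-beta1 cells, which serve both comparisons. No cholesterol gene passed the test in either. In 3D-EV cells 0 of 28 rose or fell against TGF-beta1 cells, where 0% of all tested genes passed (edgeR), and 2 genes had an unadjusted p under 0.05, where 7.24% of all tested genes did. In 2D-EV cells 0 of 28 rose or fell against TGF-beta1 cells, where 0.0282% of all tested genes passed, and 1 gene had an unadjusted p under 0.05, where 7.10% of all tested genes did. Libraries did not overlap for 2 genes that were higher in all 3D-EV libraries, Sc5d and Mylip (6.80% of all tested genes), and for 4 that were lower, Idi1, Lss, Hsd17b7 and Nr1h2 (6.83%). In 2D-EV cells no gene was higher in all libraries (6.13% of all tested genes) and 1, Soat1, was lower (6.23%). DESeq2 and limma-voom also called 0 of the 28 genes in both comparisons. The summed level of the 18 enzymes was 4203 ± 57.7 CPM with 3D-EVs, 4210.0 ± 251 CPM with 2D-EVs and 4236 ± 81.9 CPM in TGF-beta1 cells (SD, n = 3 each), ratios of 0.992 for 3D-EV and 0.994 for 2D-EV over TGF-beta1 cells. Log2 fold changes of the 18 enzymes ran from -0.16 for Hsd17b7 to 0.06 for Msmo1 in 3D-EV cells and from -0.08 for Idi1 to 0.06 for Ebp, the sterol isomerase, in 2D-EV cells. The 95% intervals reached no further than -0.34 to 0.18 in 3D-EV cells and -0.25 to 0.18 in 2D-EV cells, which bounds the size of a change that the libraries leave room for without showing that the groups were alike.

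Across both comparisons the smallest unadjusted p was that of Soat1 in 2D-EV cells, and in 3D-EV cells it was that of Mvk. For Soat1 the log2 fold change was -0.09 in 3D-EV cells (unadjusted p 0.0322, edgeR adjusted p 0.643), and it was -0.12 in 2D-EV cells (unadjusted p 0.00416, edgeR adjusted p 0.386). Every 2D-EV library lay below the lowest TGF-beta1 library, while 3D-EV library 2 reached the TGF-beta1 range. Mvk, a kinase of the mevalonate branch, had 68.0, 66.8 and 74.9 CPM in 3D-EV cells, 74.2, 77.4 and 83.3 CPM in 2D-EV cells and 76.8, 73.8 and 77.7 CPM in TGF-beta1 cells, against 67.4, 65.4 and 66.1 CPM in control cells. In 3D-EV cells its log2 fold change over TGF-beta1 cells was -0.12 (unadjusted p 0.0276, edgeR adjusted p 0.643). Mylip, at 19 to 37 counts in these 9 libraries, had log2 fold changes of 0.50 in 3D-EV cells (95% interval -0.14 to 1.14, edgeR adjusted p 0.760) and 0.19 in 2D-EV cells (edgeR adjusted p 0.938). Insig1, Vldlr and Srebf2 also did not pass the test in either comparison. None of the 4 other pathway lists had a gene that passed.

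**Figure D5:**
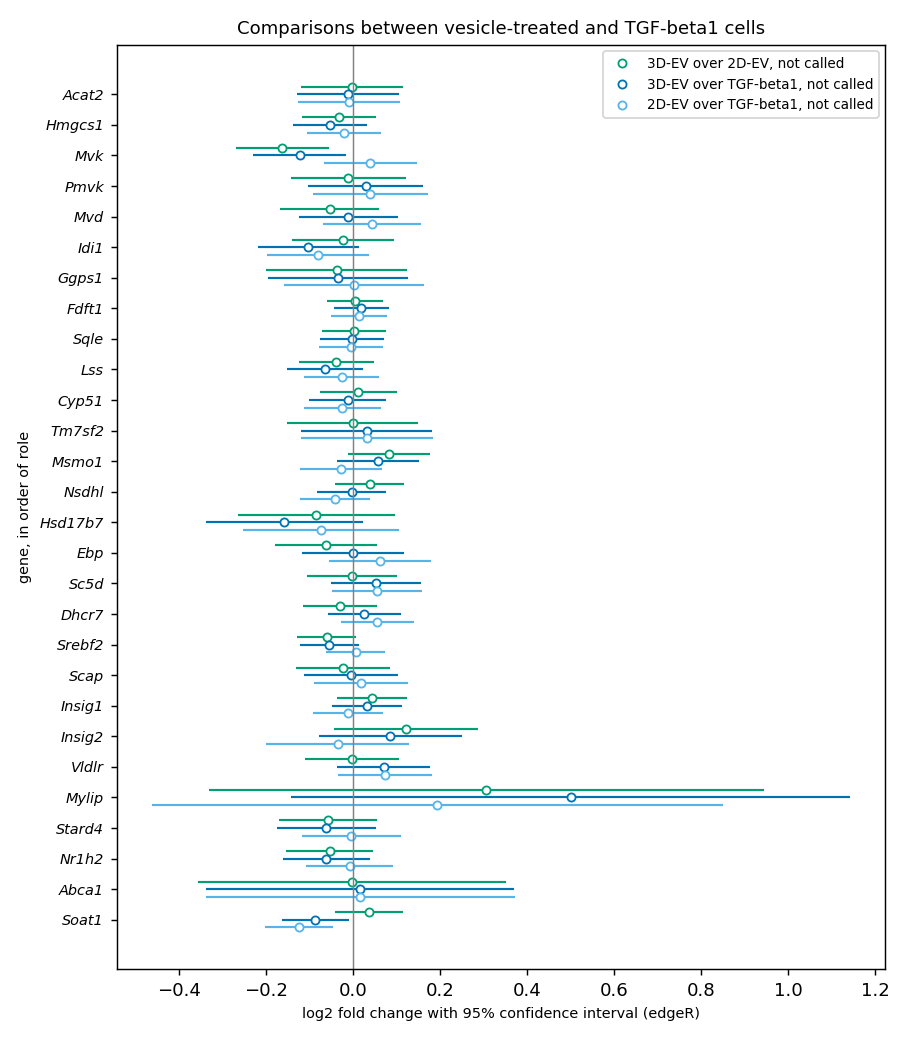
Points are log2 fold changes with 95% confidence intervals from edgeR for the 28 tested genes, for 3D-EV over 2D-EV, 3D-EV over TGF-beta1 and 2D-EV over TGF-beta1 cells. All points are open, since 0 of 28 genes passed the test in each comparison, and intervals of the 18 enzymes stay between -0.34 and 0.18.

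The direct comparison of the 3D with the 2D preparation also gave 0 of 28 genes in either direction, where 0.00705% of all tested genes passed (edgeR), and 1 gene had an unadjusted p under 0.05, where 6.90% of all tested genes did. DESeq2 and limma-voom called 0 of the 28 genes here as well. That gene was Mvk, with 69.9 ± 4.37 CPM in 3D-EV cells and 78.3 ± 4.61 CPM in 2D-EV cells (SD, n = 3 each) and a log2 fold change of -0.16 (95% interval -0.27 to -0.06, unadjusted p 0.00564, edgeR adjusted p 0.618). The libraries of Mvk overlapped, since 3D-EV library 3 stood above 2D-EV library 1. All 3D-EV libraries stood above all 2D-EV libraries for Mylip alone (5.67% of all tested genes) and below them for Srebf2 alone (5.68%). The enzyme sum was 0.998 times as high in 3D-EV as in 2D-EV cells, and the intervals of the 18 enzymes ran from -0.27 to 0.18 on the log2 scale.

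Set against control cells, vesicle-treated cells were compared over the same control libraries as TGF-beta1 cells, so these values stand beside the earlier ones and are not a separate check of them. In 3D-EV cells 20 of 28 genes rose and 0 fell, where 12.2% of all tested genes rose and 10.8% fell. In 2D-EV cells 21 of 28 rose and 0 fell, where 10.5% of all tested genes rose and 8.13% fell. Proliferation genes fell as well, 7 of 8 in 3D-EV and 6 of 8 in 2D-EV cells, and their part in the result was not tested. The enzyme sum was 1.26 times the control level with either preparation. Mvd was 1.46-fold higher in 3D-EV cells and 1.51-fold higher in 2D-EV cells than in control cells, and Vldlr was 1.47-fold higher in both. Insig1 had log2 fold changes of 0.38 in 3D-EV cells and 0.34 in 2D-EV cells, and Soat1 of 0.21 in 3D-EV cells and 0.17 in 2D-EV cells. Mvk and Stard4 rose in 2D-EV cells (log2 fold changes 0.24 and 0.18, edgeR adjusted p 0.00358 and 0.0284) and had log2 fold changes of 0.08 and 0.12 in 3D-EV cells (edgeR adjusted p 0.316 and 0.121). Insig2 rose in 3D-EV cells (log2 fold change 0.23, edgeR adjusted p 0.0439) and had a log2 fold change of 0.11 in 2D-EV cells (edgeR adjusted p 0.391). None of these genes passed the test of 3D-EV against 2D-EV cells. The Insig2 value had an adjusted p of 0.0584 with a replicate block and of 0.0510 to 0.134 without any 1 of the 3D-EV or control libraries, and the calls of the lanosterol synthase gene Lss and Tm7sf2 in 3D-EV cells and of Stard4 and Tm7sf2 in 2D-EV cells were also lost without some single libraries.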

How the data were processed

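Total RNA of 12 NRK-52E libraries, 3 per group, was sequenced after TRIzol extraction and DNase I treatment, per the labels' protocols. Reads were processed with fastp, HISAT2 and StringTie on build mRatBN7.2, and DESeq2 was among the tools, per the submitters' processing notes. The sources used here do not give versions, counting settings or strand handling, and genes that overlap or share sequence with a copy may have exchanged reads. The deposited values are counts per gene made by the authors, whole numbers without normalization. Counts were read from the joint table alone, of which 0 columns went unused, and the 12 library tables were not used in the fits.

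The fit used edgeR 4.0.16 in R 4.3.3: TMM factors (0.983 to 1.03), filterByExpr with a minimum count of 10, 1 fit of group means over the 12 libraries, quasi-likelihood F-tests, and Benjamini-Hochberg adjustment over 14184 genes at 0.05. The fit was tested on simulated counts, whose set changes were larger than most of those of the cholesterol genes. That test therefore does not show how well changes as small as most of these are found. Alternatives were DESeq2 1.42.0, limma-voom (limma 3.58.1), RLE factors, no low-count filter, fits of 2 groups, a replicate block and leaving out each library. Libraries with the same number were checked for pairing: their 18 residual correlations ran from -0.0977 to 0.0885, with 0 above 0.1, so numbers were not used as pairs. The chi-square per degree of freedom between libraries of 1 group was 6.66 to 10.6, above counting error.

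The members and lists were chosen with earlier results of these data known. Of each role list, the 4 genes with the smallest p in TGF-beta1 over control cells were given by library, with every gene called in a vesicle comparison (there was none) and up to 3 called genes of each other list; Mvk, Pmvk, Ggps1, Fdft1, Hsd17b7, Sqle, Dhcr7, Ebp, Tm7sf2 and Lss were named after their values were seen. Some other genes of the pathway are not analysed here. Promoter sequences come from a RefSeq table of build GRCr8.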

Additional observations from a re-analysis of the deposited data

How the results depend on the processing

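Under the alternatives the number of cholesterol genes that rose in TGF-beta1 over control cells was 19 to 21, that in 2D-EV over control cells 19 to 21 and that in 3D-EV over control cells 17 to 20, and 0 genes passed in the 3 comparisons among cells given TGF-beta1. The number that fell in TGF-beta1 cells was 1 with no low-count filter, by Abcg1, which that setting added to the genes tested, and 0 to 1 when single libraries were left out, by Mylip. The median log2 fold change of the members over control was 0.23 to 0.29 in TGF-beta1 cells, and that of 3D-EV over 2D-EV cells was -0.050 to 0.020, when single libraries were left out. Values near 0 changed sign in TGF-beta1 over control cells: with single libraries left out, Scap ran from -0.049 (without control replicate 2) to 0.056 and was -0.013 without TGF-beta1 replicate 3, and Nr1h2 ran from -0.056 to 0.0041 (without control replicate 2); the cause was not tested. Of the single-gene results under the alternatives, 1186 kept their direction and side of the threshold, 33 lost and 2 gained the threshold, and 3 changed sign.

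The replicate numbers were not taken to pair the libraries, of which 5 in 12 had their highest correlation with a library of the same number. With a replicate block 21 genes rose in TGF-beta1 over control cells, 21 in 2D-EV and 19 in 3D-EV cells, where Insig2 was lost, and no other call changed. Over all genes, the vesicle comparisons depend on the tool: DESeq2 called 18 higher and 38 lower genes in 2D-EV over TGF-beta1 cells where edgeR called 0 and 4, 8 and 5 in 3D-EV over TGF-beta1 cells where edgeR called 0 and 0, and 16 and 5 in 3D-EV over 2D-EV cells where edgeR called 1 and 0. Depth limits Mylip, Abcg1 and Nr1h3, at 51 counts or fewer per library.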
